A study of Homo sapiens with 8 samples.

Results

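The genes described here are DNER, 3 Notch receptors (NOTCH1, NOTCH2 and NOTCH3), 3 ligands (JAG1, JAG2 and DLL1) and 3 Notch target genes (HES1, HEY1 and NRARP), that is, 10 genes of the 61228 listed. All 10 were found by symbol. DNER was chosen because its RNA fell with ACBI1 in H1975 and rose in HCC44, so its changes are described without a test, and the other 9 were set beside it by family. The libraries came from H1975 and HCC44, established human lung cancer cell lines that the labels call WT, after 96 hours with the solvent DMSO or with ACBI1. The 4 groups were H1975 with DMSO, H1975 with ACBI1, HCC44 with DMSO and HCC44 with ACBI1, with 2 libraries each. ACBI1 is a bifunctional degrader: one end holds a bromodomain found in PBRM1, SMARCA4 and SMARCA2, which belong to the SWI/SNF chromatin remodelers, and the other end recruits the VHL ubiquitin ligase. Its labelled dose was 1 mM, which is unusually high for a degrader and could not be checked here. Nothing states that replicates were separate cultures, so p-values measure only the spread between these libraries.

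Notch signalling passes between touching cells. A ligand of the Jagged or Delta-like type on one cell binds a Notch receptor on its neighbour, proteases free the receptor's intracellular domain, and that domain joins RBPJ and a Mastermind co-activator on DNA to switch on genes such as HES1, HEY1 and NRARP. In airway epithelium the pathway is known for its part in choosing between secretory and other cell fates. DNER is a membrane protein with EGF-like repeats, best known from neurons and described as an atypical Notch ligand.

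HES1 and NRARP are both known direct targets, and the 250 bases before their starts are shown (RefSeq, GRCh38.p14, 5′ to 3′ on the gene's strand). Capitals mark the RBPJ core TGGGAA, which was searched on both strands. The HES1 stretch lies at chr3:194135898-194136147 on the plus strand and the NRARP stretch at chr9:137302272-137302521 on the minus strand.
HES1: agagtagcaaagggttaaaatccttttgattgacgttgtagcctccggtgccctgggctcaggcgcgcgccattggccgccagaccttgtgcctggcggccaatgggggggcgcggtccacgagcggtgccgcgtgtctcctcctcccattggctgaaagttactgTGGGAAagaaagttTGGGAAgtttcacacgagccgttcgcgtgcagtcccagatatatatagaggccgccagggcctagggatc
NRARP: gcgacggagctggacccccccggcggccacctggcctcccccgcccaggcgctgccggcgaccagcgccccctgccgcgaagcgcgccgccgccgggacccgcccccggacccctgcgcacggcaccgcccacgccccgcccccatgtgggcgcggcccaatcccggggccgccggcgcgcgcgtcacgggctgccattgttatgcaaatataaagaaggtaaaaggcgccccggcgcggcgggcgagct
The HES1 stretch held 2 matches, both on the gene's own strand, beginning 84 and 70 bases before the start. The NRARP stretch held 0. Of 27305 promoters of this length, 21.1% held at least 1 match and 2.92% held at least 2. Of the 10 genes, 7 had a promoter entry that was searched, and among those 7 the HES1 stretch alone held the core. DNER and DLL1 had no entry, and HEY1 was left out of the search. A match describes letters in this window and nothing about binding, and its part in the ACBI1 responses was not tested.

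Counts assigned to genes ran from 62467286 to 70455517 per library. Values below are CPM, counts scaled to 1000000 per library with TMM factors, and a gene is "called" when its edgeR quasi-likelihood test has a Benjamini-Hochberg adjusted p under 0.05 over the 21307 genes tested. Epithelial markers (EPCAM, CDH1 and 4 keratins) were present in all groups, summing to 5140 to 5390 CPM in H1975 with DMSO and 940 to 980 CPM in HCC44 with DMSO. Markers of blood cells summed to at most 3.43 CPM and those of endothelium to at most 4.01 CPM in any library, and CD3E was at 0 in all 8 libraries. In the HCC44 ACBI1 group, 8 of the 10 genes were higher in replicate 2 than in replicate 1, with a median ratio of 1.32, whereas 49.3% of all tested genes were higher in replicate 2. The other 3 groups had 4 or 5 of the 10 genes higher in replicate 2.

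**Figure D1:**
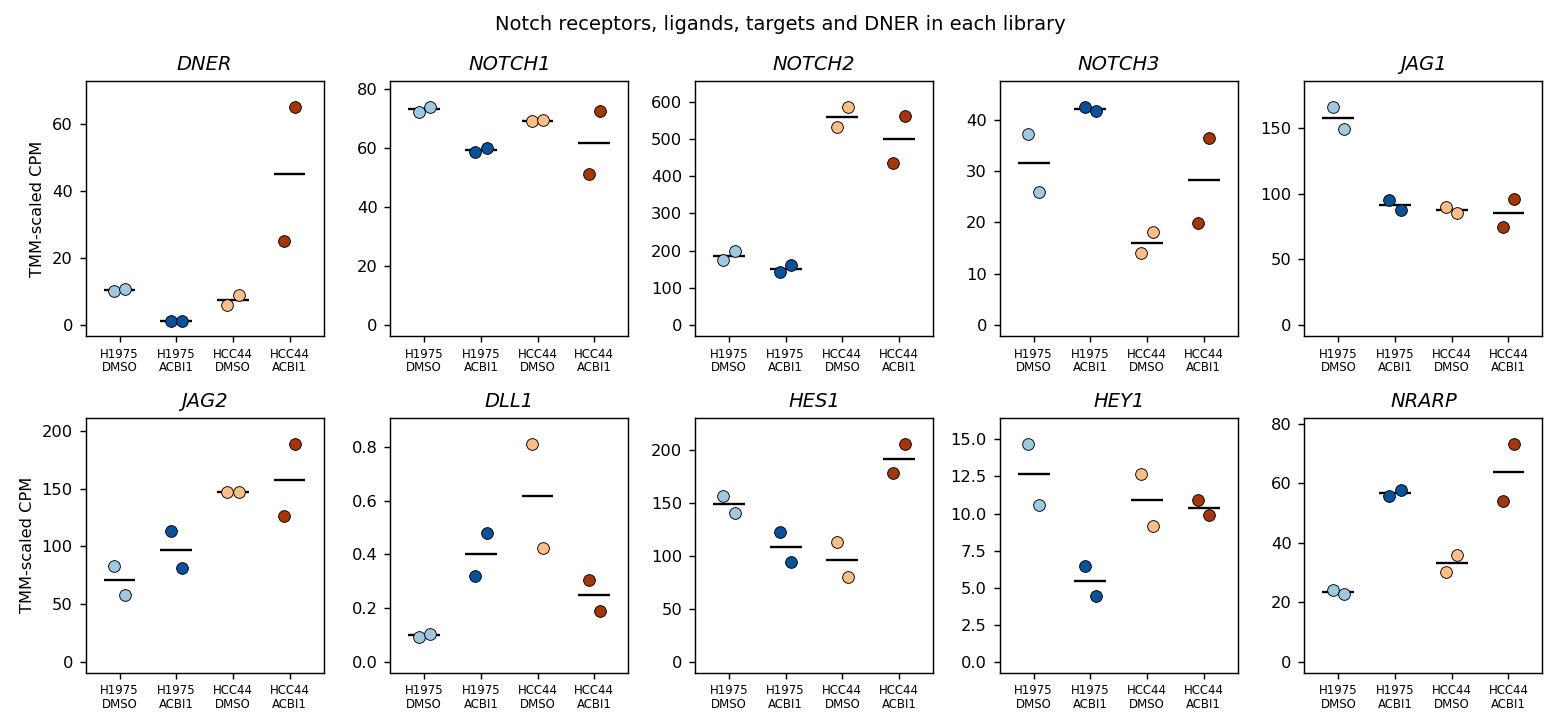
TMM-scaled CPM of each of the 10 genes in each library, with a dot per library and a line at the mean of the 2 libraries of a group. NRARP is higher with ACBI1 in both lines, JAG1 and HEY1 are lower with ACBI1 in H1975, and the 2 HCC44 ACBI1 libraries of DNER lie at 25.2 and 65 CPM.

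DNER lies on chromosome 2 (chr2:229357629-229714558, minus strand, GRCh38, GENCODE 29), and no exon of it overlaps another annotated gene. In H1975 it stood at 10.1 and 10.8 CPM in the DMSO libraries and at 1.28 and 1.16 CPM in the ACBI1 libraries. In HCC44 it stood at 5.99 and 9.03 CPM with DMSO and at 25.2 and 65 CPM with ACBI1. The groups did not overlap in either line, and they moved in opposite directions. Groups without overlap were common, at 67.3% of all tested genes in H1975 and 66.8% in HCC44. The counts behind these values were 1378 against 178 in H1975 and 953 against 5703 in HCC44, so read number did not limit either value.

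The fitted log2 fold change of DNER with ACBI1 was -3.10 ± 0.48 (SE, 2 libraries against 2) in H1975 and 2.58 ± 0.43 in HCC44. The difference, HCC44 minus H1975, was 5.68 ± 0.65. The HCC44 value leaned on its ACBI1 libraries, which were 2.58-fold apart: it was 1.74 without replicate 2 and 3.11 without replicate 1. Being lower in H1975 and higher in HCC44, with both calls passed, described 1.34% of all tested genes, and nothing is read from that share because DNER was chosen by this pattern. In DMSO the lines stood closer together, at 10.4 ± 0.497 CPM (SD, n = 2) in H1975 and 7.51 ± 2.15 CPM in HCC44.

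Markers of several cell types shifted with ACBI1 as well. The 5 fibroblast markers summed to 48.8 to 71.9 CPM in H1975 with DMSO and 25.5 to 30.4 CPM with ACBI1, and to 73.4 to 91.9 CPM and 203 to 406 CPM in HCC44. COL1A1, a collagen chain, made up most of that sum, while DCN was at 0 in all 8 libraries and PDGFRA had at most 4 counts in any. The list did not move as one. In H1975 COL1A1 and COL1A2 were called as lower and PDGFRB, a growth factor receptor, as higher (1.38 ± 0.27, from 84 to 241 counts). In HCC44 COL1A1 was called as higher and COL1A2 as lower, from 12 counts to 0, while PDGFRB was not called. The epithelial markers summed to 2330 to 2810 CPM with ACBI1 in H1975, where 4 of 6 were called as lower, and to 1200 to 1660 CPM in HCC44, where 2 were called as higher and 1 as lower. Of all tested genes, 14.6% were called as higher and 16.7% as lower in H1975, and 17.5% and 17.4% in HCC44. The 5 neuroendocrine markers summed to 0.887 to 1.85 CPM with DMSO and 12.4 to 16.3 CPM with ACBI1 in H1975, and to 0.219 to 0.254 CPM and 2.11 to 2.45 CPM in HCC44. Nearly all of that was SYP, a synaptic vesicle protein and the only one of the 5 that passed the filter, while CHGA had at most 3 counts and INSM1 and NEUROD1 at most 1 in any library. The part of these markers in the DNER values was not tested.

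The 5 genes with the pattern most like DNER were STRA6, COL1A1, KLHDC7B-DT, ICAM4 and C1QTNF1. Likeness was the root mean square difference of log2 CPM, centred on each gene's mean, over the 8 libraries, among the 14768 candidates, tested genes averaging 1 CPM or more. It was 0.76 for STRA6, the retinol transporter of the cell surface, 0.80 for COL1A1 and KLHDC7B-DT, and 0.87 for ICAM4 and C1QTNF1, against a median of 1.87 over all those genes. The 5 were picked for the smallest differences, so their closeness to DNER follows from the choice and nothing is read from it. STRA6 stood at 13.3 ± 5.81 CPM (SD, n = 2) with DMSO and 4.03 ± 1.26 CPM with ACBI1 in H1975, and at 20.8 ± 5.1 and 46.4 ± 19.7 CPM in HCC44. COL1A1 stood at 56.6 ± 17.3 and 25.9 ± 4.19 CPM in H1975, and at 80.3 ± 13 and 302 ± 144 CPM in HCC44. All 5 differed from DNER in one respect, a higher mean level in HCC44 than in H1975 with DMSO.

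**Figure D2:**
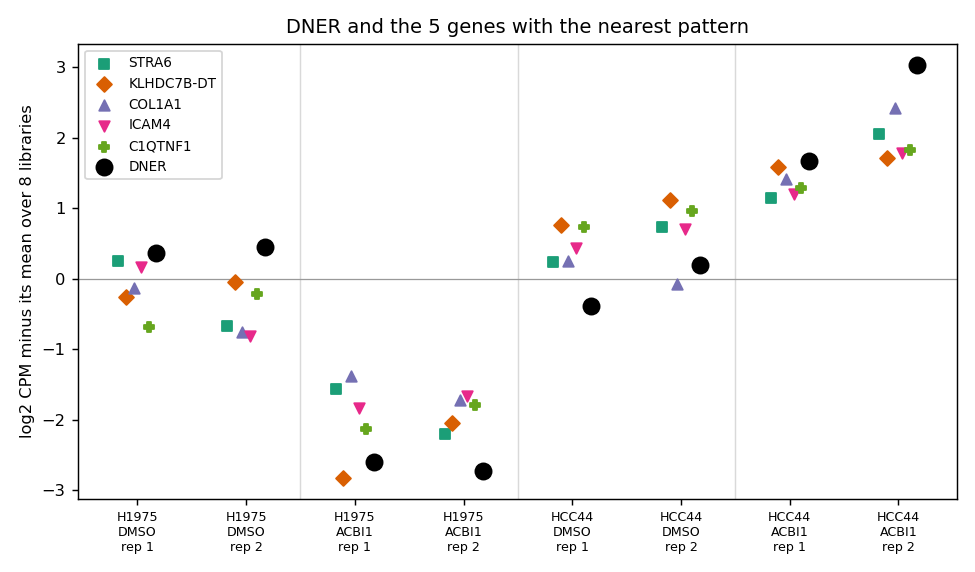
Log2 CPM of DNER and of the 5 genes nearest to it in pattern, each minus its own mean over the 8 libraries, for each library. All 6 genes are lowest in the 2 H1975 ACBI1 libraries and highest in the 2 HCC44 ACBI1 libraries, and DNER spans the widest range. The 5 were picked for their likeness to DNER, so the shared pattern follows from the choice.

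Among the receptors, no call was made with ACBI1 in either line. NOTCH1 (chr9:136494433-136545786, minus strand), a receptor active in many epithelia, stood at 72.2 and 73.7 CPM with DMSO and 58.6 and 59.9 CPM with ACBI1 in H1975, and at 68.9 and 69.4 CPM and 51.1 and 72.3 CPM in HCC44. Its groups did not overlap in H1975 and overlapped in HCC44. The log2 fold changes were -0.30 ± 0.13 (adjusted p 0.116) and -0.16 ± 0.13 (adjusted p 0.384). NOTCH1 was called as lower in H1975 without the filter on low counts and with H1975 fitted alone, both at -0.30, and in HCC44 without ACBI1 replicate 2, at -0.44.

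NOTCH2 (chr1:119911553-120069626, minus strand) stood at 175 and 198 CPM with DMSO and 143 and 160 CPM with ACBI1 in H1975. In HCC44 it stood at 533 and 585 CPM with DMSO and 435 and 562 CPM with ACBI1. The lines were far apart and the treatments close together. The log2 fold changes with ACBI1 were -0.30 ± 0.13 (adjusted p 0.0947) in H1975 and -0.16 ± 0.12 (adjusted p 0.347) in HCC44. NOTCH2 was called as lower in H1975 without the filter and with H1975 fitted alone, both at -0.30, and in HCC44 without ACBI1 replicate 2, at -0.36. Its NOTCH2NL copies are nearly identical in sequence, so reads shared with them leave its counts uncertain.

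NOTCH3 (chr19:15159038-15200981, minus strand), the receptor best known from vascular smooth muscle and itself a Notch target, had positive fold changes. It stood at 37.2 and 26 CPM with DMSO and 42.5 and 41.8 CPM with ACBI1 in H1975, and at 14 and 18.1 CPM and 19.9 and 36.5 CPM in HCC44. In both lines the ACBI1 libraries lay above the DMSO libraries. The log2 fold changes were 0.41 ± 0.29 (adjusted p 0.318) in H1975 and 0.82 ± 0.29 (adjusted p 0.0644) in HCC44. The HCC44 value was called as higher with DESeq2 (0.81), no filter (0.82), library totals (0.91), a minimum of 1 CPM in 2 libraries (0.83) and without ACBI1 replicate 1 (1.19). NOTCH1, NOTCH2 and NOTCH3 passed no test of the difference between the lines, with log2 differences of 0.14 ± 0.19, 0.13 ± 0.18 and 0.40 ± 0.41.

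The ligands were called in H1975 for JAG1 and DLL1. JAG1 (chr20:10637684-10673999, minus strand), a Jagged ligand, fell there from 166 and 149 CPM to 95.1 and 87.4 CPM, a log2 fold change of -0.79 ± 0.12 (adjusted p 0.00074). In HCC44 it was 89.9 and 85.2 CPM with DMSO and 75 and 95.8 CPM with ACBI1, and the groups overlapped (-0.04 ± 0.12, adjusted p 0.86). The H1975 ACBI1 libraries thus stood at about the level that HCC44 had with either treatment. The difference between the lines was 0.75 ± 0.17 (adjusted p 0.011). Without HCC44 DMSO replicate 2 that difference was 0.72 and was not called. Exons of JAG1 share 79 bases with an antisense gene, AL050403.2.

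JAG2 (chr14:105140981-105168824, minus strand), the second Jagged ligand, was not called in either line. It stood at 82.7 and 58.3 CPM with DMSO and 113 and 81.3 CPM with ACBI1 in H1975 (log2 fold change 0.46 ± 0.24, adjusted p 0.193). In HCC44 it was 147 CPM in both DMSO libraries and 126 and 189 CPM with ACBI1 (0.10 ± 0.24, adjusted p 0.804). The groups overlapped in both lines, and the difference between the lines was -0.37 ± 0.34 (adjusted p 0.518). Exons of JAG2 share 469 bases with AL512356.1 on the same strand.

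DLL1 (chr6:170282206-170306565, minus strand), a Delta-like ligand, was near the counting limit and moved in the direction opposite to DNER. It had 6 and 7 counts with DMSO and 24 and 34 with ACBI1 in H1975, and 51 and 27 counts and 19 and 12 counts in HCC44. The groups did not overlap in either line. It rose in H1975 (adjusted p 0.0152 at a log2 fold change of 2.0 ± 0.53) and fell in HCC44 (-1.32 ± 0.45, adjusted p 0.0424), with a difference of -3.32 ± 0.70 (adjusted p 0.00848). Calls in opposite directions in the lines were made for 2.23% of all tested genes. DLL1 was above the filter's level of 0.152 CPM in 6 of 8 libraries, and the 2 below it were the H1975 DMSO libraries. The H1975 call was lost without DMSO replicate 1 (1.93), DMSO replicate 2 (2.12) or ACBI1 replicate 2 (1.70). The HCC44 call was lost with DESeq2 (-1.33), library totals (-1.23), HCC44 fitted alone (-1.31), and without DMSO replicate 1 (-0.78), ACBI1 replicate 1 (-1.70) or ACBI1 replicate 2 (-1.02).

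The 3 target genes did not move as one. NRARP (chr9:137300482-137302251, minus strand), an ankyrin repeat protein that limits Notch signalling in a feedback loop, rose in both lines. It went from 24.1 and 22.9 CPM to 55.6 and 57.6 CPM in H1975, and from 30.1 and 36 CPM to 54.1 and 73.2 CPM in HCC44. All ACBI1 libraries lay above all DMSO libraries of both lines. The log2 fold changes were 1.27 ± 0.14 (adjusted p 0.000143) and 0.94 ± 0.14 (adjusted p 0.000533). Their difference was -0.33 ± 0.20 (adjusted p 0.298). Calls in the same direction in both lines were made for 12.9% of all tested genes.

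HES1 (chr3:194136145-194138732, plus strand), a helix-loop-helix repressor and the gene with the 2 RBPJ cores printed above, rose in HCC44. There it went from 113 and 79.9 CPM to 178 and 206 CPM, a log2 fold change of 0.99 ± 0.18 (adjusted p 0.00251). In H1975 it was 157 and 141 CPM with DMSO and 123 and 94.4 CPM with ACBI1, which did not overlap but were not called (-0.45 ± 0.18, adjusted p 0.0845). The difference between the lines was 1.44 ± 0.25 (adjusted p 0.00529). HES1 was called as lower in H1975 with H1975 fitted alone (-0.45), with no filter (-0.46) and without H1975 ACBI1 replicate 1 (-0.62).

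HEY1, a related repressor of the HES and HEY family, fell in H1975. There it went from 14.7 and 10.6 CPM to 6.44 and 4.45 CPM, a log2 fold change of -1.22 ± 0.23 (adjusted p 0.00289). In HCC44 it was 12.7 and 9.18 CPM with DMSO and 10.9 and 9.88 CPM with ACBI1, and the groups overlapped (-0.08 ± 0.23, adjusted p 0.839). The difference of 1.14 ± 0.32 (adjusted p 0.033) was close to the threshold. It was not called with library totals (1.03), nor without H1975 DMSO replicate 1 (0.89), H1975 ACBI1 replicate 2 (0.87), HCC44 DMSO replicate 2 (0.93), HCC44 ACBI1 replicate 1 (1.07) or HCC44 ACBI1 replicate 2 (1.21).

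**Figure D3:**
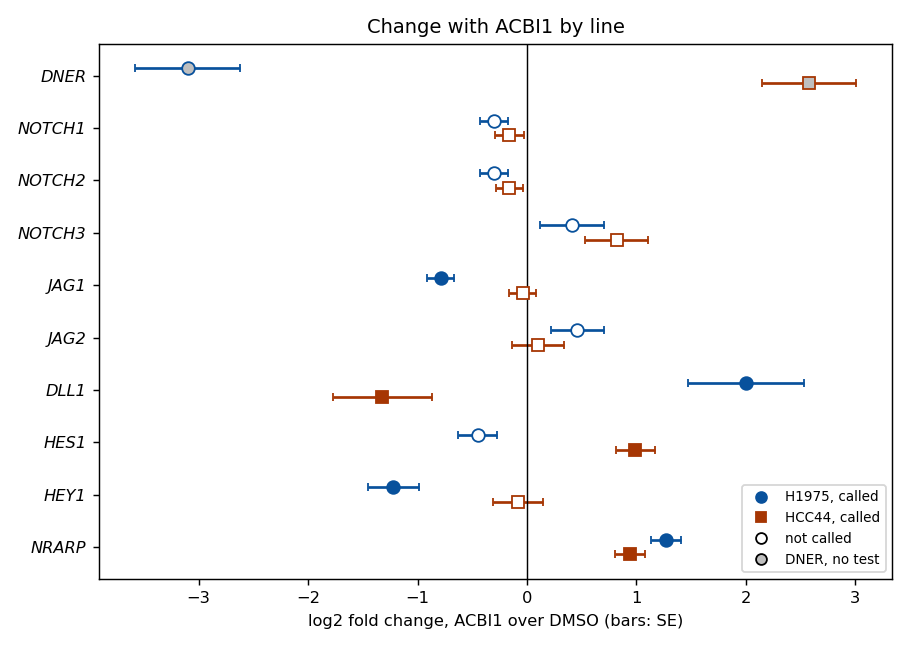
Log2 fold change with ACBI1 in H1975 (circles) and HCC44 (squares) for the 10 genes, with bars of 1 standard error. Filled symbols passed the edgeR test, open symbols did not, and DNER, shown in grey, was not tested. NRARP is the only one of the 9 tested genes called as higher in both lines, and the DLL1 symbols rest on few counts.

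Counted over the 9 genes other than DNER, 4 were called in H1975 (2 higher, 2 lower), which is 44.4% beside 31.3% of all tested genes (14.6% higher, 16.7% lower). In HCC44 3 were called (2 higher, 1 lower), 33.3% beside 34.9% of all tested genes (17.5% higher, 17.4% lower). The difference between the lines was called for 4 (3 higher, 1 lower), 44.4% beside 18.6% (10.2% higher, 8.4% lower). The genes were chosen with results of these data known, so nothing about the list as a whole is read from these shares. The median log2 fold change of the 9 was -0.30 in H1975 and -0.04 in HCC44, against -0.01 and 0.01 over all tested genes. Without HCC44 DMSO replicate 2 the difference was called for 2 of the 9.

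The lines differed before treatment. In DMSO 7 of the 9 genes were called between HCC44 and H1975, beside 67.9% of all tested genes (31.6% higher and 36.4% lower in HCC44). NOTCH2 was higher in HCC44 (log2 fold change 1.58 ± 0.13, adjusted p 1.06e-06), as were JAG2 (1.06 ± 0.24, adjusted p 0.00514), DLL1 (2.62 ± 0.51, adjusted p 0.000844) and NRARP (0.50 ± 0.14, adjusted p 0.00962). JAG1 (-0.85 ± 0.12, adjusted p 7.13e-05), NOTCH3 (-0.98 ± 0.29, adjusted p 0.0172) and HES1 (-0.62 ± 0.18, adjusted p 0.0113) were lower in HCC44. NOTCH1 (-0.08 ± 0.13) and HEY1 (-0.21 ± 0.23) were not called. The call was lost for NRARP (0.36) and HES1 (-0.39) without HCC44 DMSO replicate 2, for HES1 (-0.54) and NOTCH3 (-0.70) without H1975 DMSO replicate 1, and for NOTCH3 (-0.81) without HCC44 DMSO replicate 1. These comparisons share the DMSO libraries with those of ACBI1 above.

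Levels were compared between genes as CPM per kilobase of annotated exon. In H1975 with DMSO the order was HES1 at 72.2, JAG1 at 17, NRARP at 13.3, NOTCH2 at 11.1, JAG2 at 11, NOTCH1 at 7.03, HEY1 at 3.93, NOTCH3 at 3.37, DNER at 2.65 and DLL1 at 0.0305 CPM per kb. The libraries overlapped between NOTCH2 and JAG2 and between HEY1 and NOTCH3, and between no other neighbours. In HCC44 with DMSO the order was HES1 at 46.8, NOTCH2 at 33.2, JAG2 at 23, NRARP at 18.7, JAG1 at 9.41, NOTCH1 at 6.67, HEY1 at 3.39, DNER at 1.91, NOTCH3 at 1.7 and DLL1 at 0.191 CPM per kb, with overlap between DNER and NOTCH3 only. With ACBI1, DNER moved to the fifth place in HCC44, at 11.5 CPM per kb, overlapping JAG1 at 9.19, and stayed in the ninth place in H1975, at 0.31 CPM per kb. HES1 was first and DLL1 last in each of the 4 groups.

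**Figure D4:**
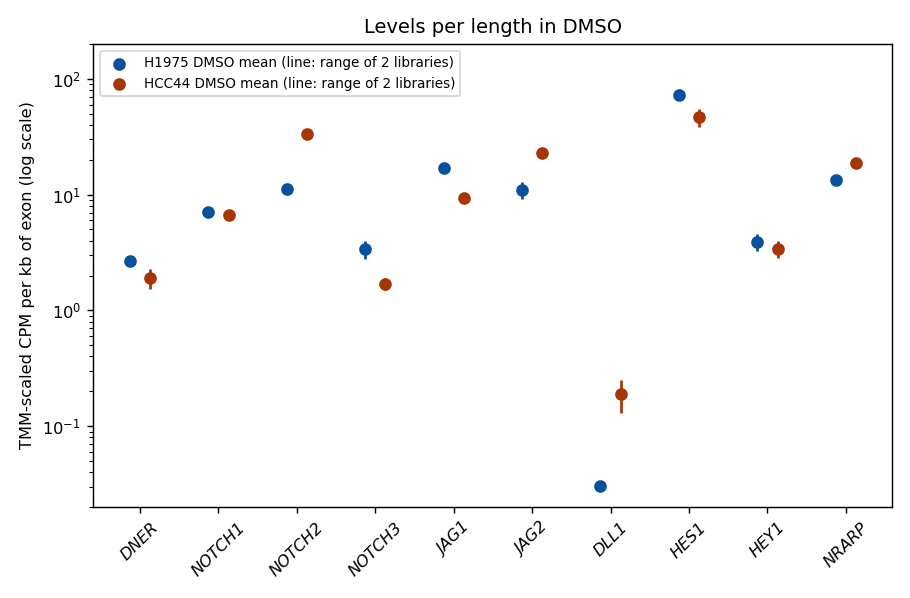
TMM-scaled CPM per kilobase of exon of the 10 genes in DMSO, on a log axis, with a dot at the mean and a line over the range of the 2 libraries of each line. HES1 is highest and DLL1 lowest in both lines, and NOTCH2 stands at 11.1 in H1975 and 33.2 in HCC44.

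Of 54 other genes of the pathway, 51 were tested. In H1975 24 were called (11 higher, 13 lower), 47.1% beside 31.3% of all tested genes. In HCC44 26 were called (12 higher, 14 lower), 51% beside 34.9%. The median log2 fold change was 0.00 in H1975, or 0.01 with HEY2 at its bound and without HES5, and -0.03 in HCC44. With library totals the H1975 split was 17 higher and 7 lower. Leaving out H1975 DMSO replicate 2, or H1975 ACBI1 replicate 1, reduced the H1975 count to 14. A call together with a log2 fold change of at least 1 in size, the rule by which most of these genes are named, was met by 12.4% of all tested genes in H1975, 14.7% in HCC44, 9.31% for the difference and 42.7% between the lines.

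RBPJ and 2 of the 3 Mastermind co-activators fell in both lines. RBPJ, the factor that carries the Notch signal to DNA, went from 132 and 159 CPM to 82.9 and 103 CPM in H1975 (log2 fold change -0.65 ± 0.13, adjusted p 0.0034). In HCC44 it went from 90.2 and 104 CPM to 50.7 and 53 CPM (-0.91 ± 0.13, adjusted p 0.000364). MAML2, a Mastermind co-activator, fell from 11.3 and 14.5 CPM to 5.93 and 8.72 CPM in H1975 (-0.82 ± 0.21, adjusted p 0.0126) and from 22.2 and 25.4 CPM to 9.55 and 7.54 CPM in HCC44 (-1.48 ± 0.21, adjusted p 0.000349). MAML3 was also lower in both lines, at -0.84 ± 0.17 and -0.68 ± 0.16, while MAML1 was called in neither. Of the 10 nuclear genes, 1 was higher and 4 lower in H1975, beside 14.6% and 16.7% of all tested genes, and 1 higher and 5 lower in HCC44, beside 17.5% and 17.4%. The one that rose in both was KAT2B, an acetyltransferase (0.93 ± 0.16 and 1.69 ± 0.16). The others were EP300, also an acetyltransferase, lower in H1975 (-0.33 ± 0.11), and the co-regulators CIR1 (-1.07 ± 0.11) and SNW1 (-0.41 ± 0.10), lower in HCC44. EP300 lost its call with DESeq2 and with RLE size factors (both -0.30), library totals (-0.13), H1975 fitted alone (-0.33) and without H1975 DMSO replicate 2 (-0.20) or ACBI1 replicate 1 (-0.17), and SNW1 without HCC44 DMSO replicate 1 (-0.35) or ACBI1 replicate 2 (-0.29). In HCC44 EP300 was called as lower with no filter and with HCC44 fitted alone (both -0.29). RBPJ, EP300 and SNW1 are named after their values were seen. RBPJ was called in both lines under every alternative run, but its processed pseudogenes leave its counts uncertain. The MAML2 call in H1975 was lost without DMSO replicate 2 (-0.58) or ACBI1 replicate 1 (-0.53), and the MAML3 call in HCC44 without DMSO replicate 2 (-0.64).

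Other HES and HEY genes, helix-loop-helix factors of the same family as HES1 and HEY1, rose where they were called. In H1975 5 of 7 were called and in HCC44 4 of 7, with 0 lower in either, beside 14.6% and 17.5% of all tested genes called as higher. HES7 went from 7.25 and 5.34 CPM to 23.9 and 23.4 CPM in H1975 (adjusted p 0.00155 at a log2 fold change of 1.91 ± 0.29) and from 9.73 and 13.8 CPM to 22.8 and 40.4 CPM in HCC44 (1.42 ± 0.28, adjusted p 0.00448). HES6 rose by 1.31 ± 0.18 in H1975 and 0.62 ± 0.18 in HCC44, and HEYL by 0.77 ± 0.23 and 1.33 ± 0.37. The HCC44 value of HEYL rests on 23 counts with DMSO and 58 with ACBI1. HEY2 had 0 counts in both H1975 DMSO libraries and 16 with ACBI1, at least 4.82-fold higher against a floor of 3 counts over the group, and rose in HCC44 by 1.5 ± 0.40 from 37 counts. HES4 rose in H1975 (0.51 ± 0.16) and stood at 0.01 ± 0.16 in HCC44, where it was not called, and HES5 was at 0 in all H1975 libraries. The difference between the lines was called for 0 of the 7, beside 18.6% of all tested genes. It was called under some alternatives for HES6, with DESeq2 (-0.73), library totals (-0.80), no filter (-0.68) and without HCC44 ACBI1 replicate 2 (-0.94), and for HES4, with no filter (-0.49) and without HCC44 DMSO replicate 1 (-0.74).

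Several of these calls were lost when 1 library was left out. HES4 in H1975 was lost without DMSO replicate 1 (0.63), DMSO replicate 2 (0.45) or ACBI1 replicate 1 (0.45), and HEYL in H1975 without any one of the 4 libraries (0.75 to 0.85). In HCC44 HES6 was lost without DMSO replicate 1 (0.44) or ACBI1 replicate 2 (0.37), HEY2 without DMSO replicate 2 (1.18) or ACBI1 replicate 2 (1.3) and with DESeq2 (1.5), and HEYL without DMSO replicate 2 (0.85) or ACBI1 replicate 1 (1.16) and with HCC44 fitted alone (1.34). The HES7 rises were called under every alternative run.

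Of the other receptors and ligands, 8 of 11 were tested, and 3 rose and 2 fell in H1975, beside 14.6% and 16.7% of all tested genes, while 4 rose and 1 fell in HCC44, beside 17.5% and 17.4%. DLL3, a Delta-like protein that acts inside the cell and is known from neuroendocrine lung tumours, rose in both lines. It went from 4.26 and 4.04 CPM to 9.48 and 11 CPM in H1975 (adjusted p 0.000326 at a log2 fold change of 1.31 ± 0.17) and from 3.29 and 3.1 CPM to 7.07 and 7.9 CPM in HCC44 (1.23 ± 0.17, adjusted p 0.00035). Its transcript stood beside the neuroendocrine markers given above, of which SYP alone was above 0.05 CPM. DLK2, an atypical ligand, rose by 1.31 ± 0.26 and 1.32 ± 0.23. MFAP2, a microfibril protein, fell in both lines, by 1.22 and 1.27 on the log2 scale. EGFL7, a secreted EGF-like protein, went from 0.249 and 0.177 CPM to 2.57 and 3.44 CPM in H1975 and from 12.5 and 13.8 CPM to 19.8 and 29.7 CPM in HCC44, with a difference of -2.90 ± 0.39 (adjusted p 0.000953). Its HCC44 call was lost without DMSO replicate 1 (0.84) or ACBI1 replicate 2 (0.59). CCN3, a matricellular protein, fell in H1975 (-2.51 ± 0.41, adjusted p 0.00118), and NOTCH4 rose in HCC44 (1.54 ± 0.27, adjusted p 0.00136) at 0.784 to 2.78 CPM.

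Among the genes for receptor cleavage, FURIN was called in both lines. FURIN, the protease that matures the receptor, fell in H1975 from 165 and 154 CPM to 77.7 and 75 CPM (log2 fold change -1.06 ± 0.10, adjusted p 4.31e-05) and in HCC44 by 0.40 on the log2 scale. The HCC44 fall was lost without DMSO replicate 1 (-0.30). The secretase subunit NCSTN (-0.39 ± 0.08) was also lower in H1975, and the sheddase ADAM17 (0.60 ± 0.10) and the secretase subunit APH1B (0.84 ± 0.20) were higher in HCC44. NCSTN lost its call with library totals (-0.19) and without H1975 DMSO replicate 2 (-0.32), ACBI1 replicate 1 (-0.35) or ACBI1 replicate 2 (-0.37). APH1B did so without HCC44 DMSO replicate 2 (0.74) or ACBI1 replicate 2 (0.58). Among 5 glycosylation genes, the Fringe enzyme LFNG fell in H1975 (-0.86 ± 0.24) and the Fringe enzyme MFNG in HCC44 (-1.45 ± 0.39). LFNG was lost with library totals (-0.66) and without DMSO replicate 2 (-0.67) or ACBI1 replicate 1 (-0.59), and MFNG without DMSO replicate 1 or ACBI1 replicate 1, both at -1.21.

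Of 12 genes for trafficking and turnover, 2 were higher and 3 lower in H1975, beside 14.6% and 16.7% of all tested genes, and 1 higher and 6 lower in HCC44, beside 17.5% and 17.4%. NUMB, an inhibitor of Notch, was lower in both lines (-0.33 ± 0.08 and -0.34 ± 0.08), as was the ubiquitin ligase subunit FBXW7 (-0.32 ± 0.11 and -0.57 ± 0.11). Both lost their H1975 calls with library totals (-0.13 and -0.12) and without any one of the 4 H1975 libraries, and NUMB lost its HCC44 call without DMSO replicate 1 (-0.31). The H1975 call of FBXW7 (adjusted p 0.0486) was also lost with DESeq2 and with RLE size factors (both -0.29), no filter (-0.33) and H1975 fitted alone (-0.32). The ubiquitin ligases NEURL1B (0.68 ± 0.22) and DTX3 (0.56 ± 0.10) were the genes higher in H1975, and MIB2 (-0.66 ± 0.10), ITCH (-0.40 ± 0.11) and DTX2 (-0.98 ± 0.10) were lower in HCC44. NEURL1B lost its call without H1975 DMSO replicate 1 (0.60), DMSO replicate 2 (0.82) or ACBI1 replicate 1 (0.49), and ITCH without HCC44 DMSO replicate 2 (-0.35) or ACBI1 replicate 2 (-0.37). NUMB, FBXW7, DTX3 and ITCH, like NCSTN and ADAM17, are named after their values were seen. NUMBL, a relative of NUMB, rose in HCC44 from 41.9 and 39.5 CPM to 102 and 87.4 CPM (log2 fold change 1.22 ± 0.10, adjusted p 1.77e-05), with a difference from H1975 of 1.02 ± 0.15 (adjusted p 0.00138). DTX4, a Deltex ubiquitin ligase, fell in H1975 (-1.04 ± 0.26), a call lost without DMSO replicate 1 (-0.99), ACBI1 replicate 1 (-0.97) or ACBI1 replicate 2 (-1.05). NEURL1, a ligase that acts on ligands, had 74 counts with DMSO and 11 with ACBI1 in HCC44 (-2.72 ± 0.69, adjusted p 0.0141), a call lost without DMSO replicate 1 (-2.31), ACBI1 replicate 1 (-3.18) or ACBI1 replicate 2 (-2.36).

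**Figure D5:**
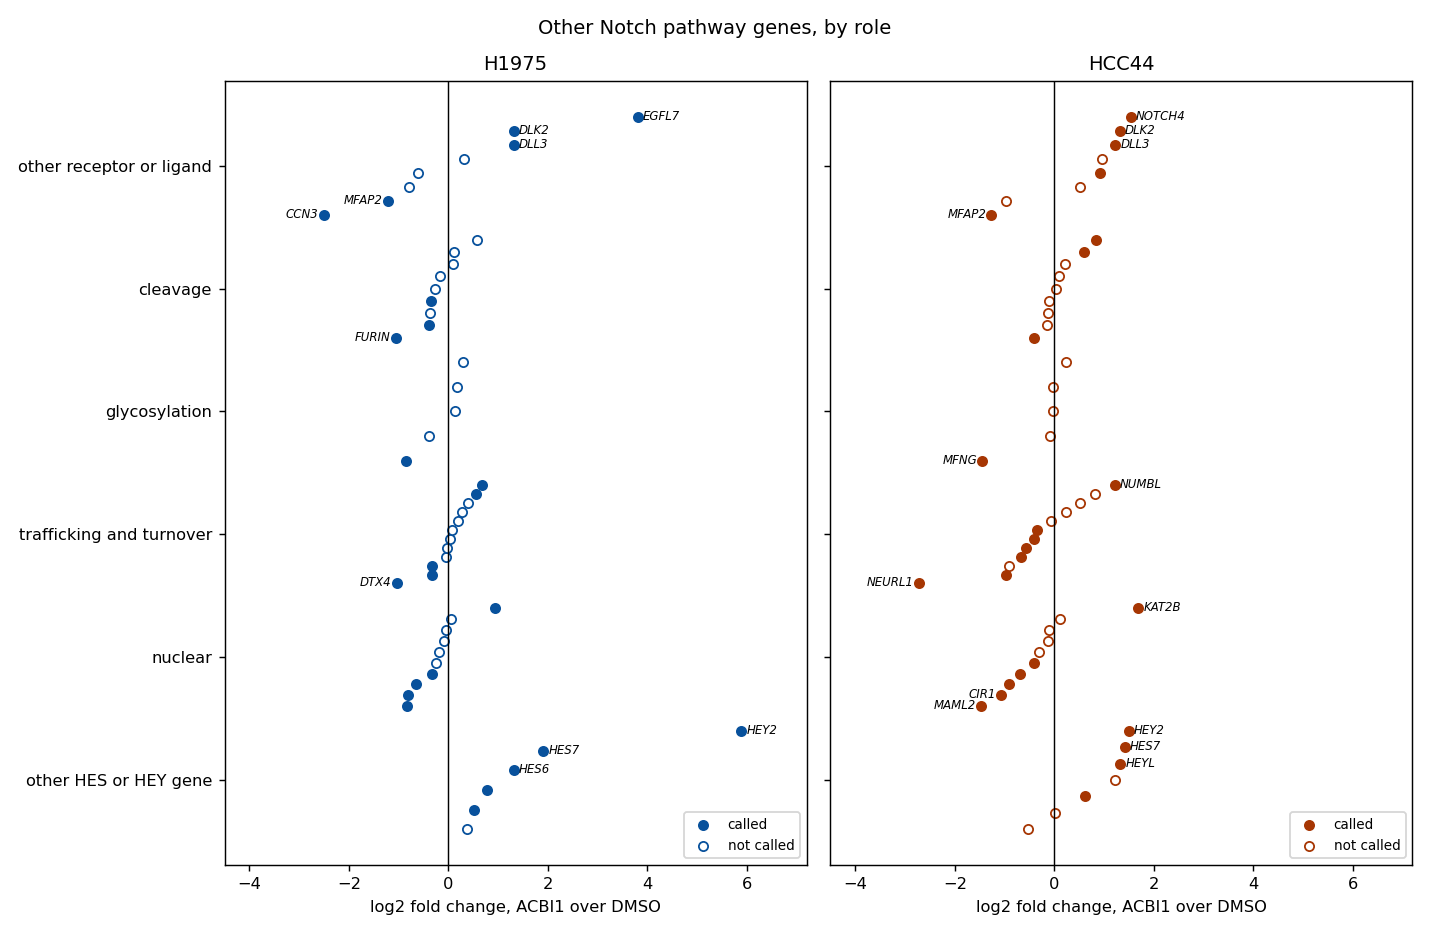
Log2 fold change with ACBI1 of the other tested pathway genes, by role, in H1975 (left) and HCC44 (right), filled where the edgeR test passed. Names mark called genes with a change of at least 1, HES5 is left out of the H1975 panel because all its counts there were 0, and the H1975 position of HEY2 is a fitted value against 0 counts. Called HES and HEY genes lie right of 0 in both panels.

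Between the lines in DMSO, 40 of the 51 genes were called, 78.4% beside 67.9% of all tested genes, 25 higher and 15 lower in HCC44. The ACBI1 response differed between the lines for 13 of the 51, 25.5% beside 18.6%. HEY2 had 37 counts in HCC44 with DMSO and 0 in H1975, at least 12.8-fold higher. HEYL was lower in HCC44 (-4.84 ± 0.32, adjusted p 1.9e-07), with 23 counts there and 695 in H1975. The fringe genes LFNG (-2.29 ± 0.26, adjusted p 1.47e-05) and MFNG (-1.68 ± 0.35, adjusted p 0.00172) were lower in HCC44, and MAML3 (2.0 ± 0.16, adjusted p 1.14e-06) was higher. EGFL7 (5.94, adjusted p 3.25e-08) and MIB2 (2.16, adjusted p 1.76e-08) were also higher in HCC44. NEURL1 (-4.8, adjusted p 6.69e-06) and NEURL1B (-4.66, adjusted p 1.59e-07) were also lower there. EGFL7 had 28 counts in H1975 with DMSO, and NEURL1 and NEURL1B had 74 and 24 in HCC44 with DMSO. The remaining called genes are not listed here. The difference in response was called for 8 without HCC44 DMSO replicate 1.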

How the data were processed

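RNA counts per gene were deposited by the authors, 1 table per library, for 8 libraries of 2 cell lines. TopHat2 2.1.1, HTSeq 0.11.0 and hg38 are named per the submitters' processing notes. The strand setting and annotation release are not given in the sources used here, so antisense and overlapping genes are uncertain. Rows that name no gene, 5 in each table, took 14.3 to 15.8% of its total and were left out. edgeR 4.0.16 (R 4.3.3) was run on all 61228 genes with filterByExpr (21307 kept), TMM scaling, a mean per group, 4 residual degrees of freedom and a robust quasi-likelihood test, checked on simulated counts. Adjusted p is by Benjamini-Hochberg over all tested genes; SE is the log2 fold change over the root of F.

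The 10 genes and the lists were chosen with earlier results of these data known. Named were all 10, other pathway genes called with an absolute log2 fold change of at least 1, and the 5 nearest to DNER; others were named after their values were seen. Exon lengths came from GENCODE 29 (GRCh38, the build named by the notes), promoters from RefSeq. Replicates differed beyond sampling noise (chi-square per degree of freedom 21.7 to 43.5). Alternatives were DESeq2 1.42.0, RLE size factors, library totals, 2 other filters, each line alone, a replicate block, and each library left out. Figures used matplotlib 3.10.9. Some genes of the lists are not reported here.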

Additional observations from a re-analysis of the deposited data

Results flagged for a closer look

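Between the lines, the change with ACBI1 (HCC44 minus H1975, log2 scale) differed by 5.68 for DNER, whose libraries all moved down in H1975 and up in HCC44; this difference was not tested, because DNER was chosen by it. A test of the difference itself passed for JAG1 (0.75), DLL1 (-3.32), HES1 (1.44) and HEY1 (1.14), of which DLL1 rests on 6 to 51 counts per library. JAG1 lost its call without HCC44 DMSO replicate 2 (0.72). HEY1 lost its call with library totals (1.03) and without each of several single libraries (0.87 to 1.21). Among the other pathway genes the test passed for EGFL7 (-2.90), FURIN (0.67), MIB2 (-0.73), NUMBL (1.02), DTX2 (-1.02) and CIR1 (-0.81), which kept their calls under every alternative run.

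Among those other pathway genes the test passed less firmly for 7 more. APH1B (1.21) lost its call without HCC44 DMSO replicate 2 (1.11) or H1975 ACBI1 replicate 1 (1.05), and DTX3 (-0.61) and DTX4 (1.55) without HCC44 DMSO replicate 1 (-0.57 and 1.37). NEURL1 (-3.00) lost its call without HCC44 DMSO replicate 1 (-2.59), HCC44 ACBI1 replicate 1 (-3.46) or HCC44 ACBI1 replicate 2 (-2.65). ADAM17 (0.48), APH1A (0.37) and KAT2B (0.76) lost theirs with library totals (0.37, 0.26 and 0.65) and without each of several single libraries. They also lost their calls with RLE size factors (0.45, 0.33 and 0.73). With DESeq2 the calls of ADAM17 (0.45) and APH1A (0.33) were lost, and with no filter that of APH1A (0.38).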

How the results depend on the processing

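No called log2 fold change of the 9 tested genes or of the other called pathway genes changed sign under an alternative. Values that were not called did: in HCC44, NOTCH1, NOTCH2, JAG1, JAG2 and HEY1 each changed sign without 1 of the HCC44 libraries. Of the 9, 4 were called in H1975, but 7 with no filter on low counts, 7 with H1975 fitted alone and 8 with a block for replicate number; the 4 were among them each time. The block added NOTCH1 (-0.30), NOTCH2 (-0.30), NOTCH3 (0.44) and JAG2 (0.46) in H1975 and NOTCH3 (0.77) in HCC44. With single libraries left out the count of the 9 was 3 to 5 in H1975, 2 to 4 in HCC44, 2 to 4 for the difference and 5 to 7 between the lines in DMSO. For the other pathway genes these counts were 14 to 18, 19 to 24, 8 to 13 and 32 to 41. With that block, the difference was called for 23 of them in place of 13. The replicate numbers name no shared batch; deviations of same-numbered libraries correlated at 0.374 in H1975 and 0.109 in HCC44. A library left alone in its group was assumed to vary like the others. Library totals moved the median H1975 gene from -0.014 to 0.18 and the share of H1975 calls that were rises from 46.6% to 72.3%, so directions are relative to TMM; DNER in H1975 was then -2.89. Depth limited DLL1, HEY2 and HES5. It also limited HEYL, NEURL1 and NEURL1B in HCC44, EGFL7 in H1975 with DMSO and CCN3 in H1975 with ACBI1.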

Other observations

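The NOTCH2NL genes, human copies of the start of NOTCH2 that are known from cortical progenitors, were listed beside it. NOTCH2NLA stood at 7.44 ± 0.643 CPM (SD, n = 2) with DMSO and 6.81 ± 1.43 CPM with ACBI1 in H1975, and at 6.62 ± 0.793 and 4.38 ± 0.946 CPM in HCC44. NOTCH2NLB stood at 1.18 ± 0.281 and 1.43 ± 0.382 CPM in H1975, and at 3.01 ± 0.55 and 1.82 ± 0.214 CPM in HCC44. NOTCH2NLC lay between 1.24 and 2.42 CPM in the means of the 4 groups. How reads were divided among these copies and NOTCH2 is not known.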
